A study of Mus musculus with 18 samples.

Results

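Bone marrow progenitor cells that carry the NUP98-HOXD13 fusion were compared with wild-type (WT) progenitor cells across the transcriptome. The comparison uses 6 of the 18 libraries of the series, chosen by their labels, and 16233 of the 53946 genes in the count table, chosen by a filter on low counts. The NHD13 group has 3 RNA libraries labelled NHD13/Setd2 flox/flox, from mice that carry the fusion transgene and floxed alleles of Setd2, with no deletion named in the label. The WT group has 3 RNA libraries from C57BL/6 mice with no transgene. Both groups have the strain label C57BL/6 and are labelled as hematopoietic stem and progenitor cells (HSPCs), sorted from bone marrow by flow cytometry with no gate stated. The groups therefore differ in the transgene and in the floxed alleles, which cannot be told apart here. The labels name no Cre line, inducer, age or sex for either group. They do not say whether separate mice gave the libraries of a group, so p-values measure the spread between libraries, which may be technical. The rest of the series holds NHD13 cells that lack Setd2, whose product trimethylates histone H3 at K36, and leukemia cells from spleen, with RNA, bisulfite and H3K36me3 profiles.

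NUP98-HOXD13 joins the transactivating repeats of a nuclear pore protein to the DNA-binding homeodomain of a HOX factor, and arose as a chromosome translocation in human myeloid disease. In the published NHD13 mouse line the human fusion is driven by regulatory elements of Vav1, which are active in blood cells of all lineages, and the mice develop a myelodysplastic syndrome that can progress to leukemia. Normal HSPCs form a continuum, in which stem cells with little granule protein give rise to granulocyte, monocyte, erythroid, megakaryocyte and lymphoid progenitors, each with its own transcription factors and receptors.

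The libraries held 22243002 to 24766705 counts in NHD13 and 22115101 to 23767776 counts in WT. The NHD13 libraries had counts in 20233 to 21065 genes, and the WT libraries in 22496 to 22669 genes. The top 10 genes made up 14.1% to 15.8% of all counts in NHD13 libraries, against 6.90% to 7.16% in WT libraries. Levels are given as CPM (counts scaled to a common library total) after scaling by the trimmed mean of M values (TMM), and differences as log2 of NHD13 over WT with a standard error. WT library 1 stood apart from the other WT libraries. The chi-square per degree of freedom of its counts was 30.9 against WT library 2 and 29.7 against WT library 3, while WT libraries 2 and 3 gave 4.02. NHD13 libraries differed too, with 13.1 for libraries 1 and 2, 8.39 for libraries 1 and 3, and 25 for libraries 2 and 3. Setd2 had 34.4, 34.6 and 31.5 CPM in NHD13 libraries, against 45.2, 43.9 and 37.2 CPM in WT libraries (log2 -0.33 ± 0.08, adjusted p = 0.00213), and its adjusted p was 0.102 once gene length was fitted. Mouse Nup98, from which the human part of the transgene cannot be told apart, had 26.3, 26.5 and 27.2 CPM in NHD13 libraries, against 23.5, 20.1 and 21.6 CPM in WT libraries (log2 0.30 ± 0.08, adjusted p = 0.00408), with log2 differences slightly below 0 on the deposited FPKM values, which are scaled by gene length and library total. Mouse Hoxd13 had 0 counts in all 6 libraries, so the fusion itself was not seen in this table. The Y-linked genes Ddx3y, Eif2s3y, Kdm5d and Uty had at most 1 count in any of the 6 libraries.

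The HSPC label was checked against 12 markers, all of which were measured and all of which fell in NHD13. The stem cell factor receptor gene Kit had 75.6, 75.7 and 69.4 CPM in NHD13 libraries, against 102, 100.3 and 98.98 CPM in WT libraries (log2 -0.45 ± 0.06, adjusted p = 2.88e-06). Ly6a, the gene of SCA-1, had 2.65, 3.41 and 1.88 CPM in NHD13 libraries, against 48.2, 46.9 and 52.1 CPM in WT libraries. The summed level of the 12 markers was 198 to 219 CPM per library total in NHD13 and 1290 to 1392 CPM in WT. Kit thus had 0.732 times its WT level, and Ly6a, which marks more primitive cells, had 0.0538 times its WT level. The 15 neutrophil precursor markers all rose. Their summed level was 121442 to 134191 CPM per library total in NHD13 and 31090.5 to 35118.5 CPM in WT. Summed levels of markers, here and below, are not TMM-scaled, unlike the levels of single genes. The TMM factors were 0.798 to 0.833 in NHD13 libraries and 1.05 to 1.09 in WT libraries. TMM scaling would therefore raise NHD13 sums relative to WT sums. In bulk RNA, fewer cells of a type and less RNA per cell cannot be told apart. Every gene group below was measured beside this difference in markers, and its part in each result was not tested.

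Of the 16233 genes, 4112 rose in NHD13 (25.3%), 4652 fell (28.7%) and 7469 did not pass an adjusted p of 0.05, so that 8764 (54.0%) passed in either direction. At least 2-fold changes were found in 1160 genes that rose (7.15%) and 2579 genes that fell (15.9%). These shares are the background for every count of a gene list below. Genes that rose made up 46.9% of the calls, but 16.8% on log2(FPKM + 0.1) and 16.9% on log2(FPKM + 1) values. The median of all genes lay at -0.04, at -0.36 and -0.21 on those FPKM scales, and at -0.12 with upper-quartile factors. Changes of at least 2-fold numbered 348 and 1089 on log2(FPKM + 1), which understates the change of low genes, and of the 61 counts of 5 or more 2-fold members in the gene lists 50 moved by over 1.5 times there. The direction depended on level. Among the 2329 genes with a mean of 100 CPM or more in the higher group, 206 were at least 2-fold higher in NHD13 (8.84%) and 87 at least 2-fold lower (3.74%). Among the 4449 genes between 1 and 10 CPM, 415 were at least 2-fold higher (9.33%) and 1356 at least 2-fold lower (30.5%). The gene lists below were not matched for level. Genes with at least 10 CPM in NHD13 and below 1 CPM in WT numbered 23, against 40 with at least 10 CPM in WT and below 1 CPM in NHD13.

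Among abundant genes outside the neutrophil markers, the largest gain in CPM was that of Tmsb4x, which encodes the actin-sequestering peptide thymosin beta 4. It had 12794, 14838 and 12360.5 CPM in NHD13 libraries, against 4084, 5325 and 5085 CPM in WT libraries (log2 1.46 ± 0.09, adjusted p = 1.94e-10). The nucleosome-binding protein gene Hmgn2 had 7807, 8771 and 7995 CPM in NHD13 libraries, against 2394, 2605 and 2520.2 CPM in WT libraries, and the antioxidant enzyme gene Gpx1 had 11322, 12584 and 12682 CPM in NHD13 libraries, against 6609.8, 7264 and 7279 CPM in WT libraries. None of these genes overlapped between the groups. Here and below, most genes could be named only if their NHD13 and WT libraries did not overlap. Such separation follows from that choice and is no support by itself. Tmsb4x and Hmgn2 have processed copies in the genome that could share reads, so their levels are uncertain. Actb, cytoplasmic actin, had 9998, 13610.3 and 10702 CPM in NHD13 libraries, against 2731, 6285 and 6900.4 CPM in WT libraries (log2 1.11 ± 0.31, adjusted p = 0.0135), with no overlap between the groups but a spread within WT that left an adjusted p of 0.0631 when only the 6 libraries were fitted. Of the losses, the tubulin-binding protein gene Stmn1 had 1739, 1861 and 1636 CPM in NHD13 libraries, against 3238, 3133 and 2988 CPM in WT libraries. The macroH2A histone gene H2afy had 610.2, 591 and 654 CPM in NHD13 libraries, against 1571, 1725 and 1660.0 CPM in WT libraries, and the lipoprotein gene Apoe had 52.1, 56.7 and 60.2 CPM in NHD13 libraries, against 916, 709 and 752 CPM in WT libraries (log2 -3.81 ± 0.09, adjusted p = 3.57e-16). For these 3 genes every NHD13 library lay below every WT library, and Apoe was 14.1-fold lower.

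The largest relative rises outside the markers included Mst1r, the receptor of macrophage-stimulating protein, with 36.8, 28.9 and 35.7 CPM in NHD13 libraries, against 0.425, 0.332 and 0.342 CPM in WT libraries (log2 6.50 ± 0.21, adjusted p = 9.50e-15). Olfml2b, a secreted olfactomedin-domain protein gene, had 24.2, 19.5 and 24.97 CPM in NHD13 libraries, against 0.193, 0.208 and 0.513 CPM in WT libraries. Chil1, a chitinase-like lectin gene, had 95.03, 99.3 and 93.7 CPM in NHD13 libraries, against 1.62, 1.99 and 1.67 CPM in WT libraries (log2 5.76 ± 0.09, adjusted p = 5.91e-19). In WT libraries these 3 genes stayed below 2 CPM. Among the largest falls, Ppic, a cyclophilin gene, had 0.324, 0.787 and 0.840 CPM in NHD13 libraries, against 48.4, 57.7 and 53.98 CPM in WT libraries (log2 -6.33 ± 0.17, adjusted p = 6.21e-16). Fkbp9, which encodes a prolyl isomerase of the endoplasmic reticulum, had 0.270, 0.157 and 0.198 CPM in NHD13 libraries, against 10.3, 10.3 and 11.2 CPM in WT libraries. Smo, the signal transducer of the Hedgehog pathway, had 0.756, 0.157 and 0.0494 CPM in NHD13 libraries, against 18.6, 13.9 and 13.6 CPM in WT libraries (log2 -5.60 ± 0.38, adjusted p = 2.77e-08), and without NHD13 library 1 its log2 difference was -7.16. None of these falling genes reached 1 CPM in an NHD13 library.

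The same groups have bisulfite profiles of 1 library each, which give a readout other than RNA at the promoters of these genes. The authors' deposited table of differentially methylated regions between NHD13 and WT lists 58684 regions with a median length of 222 bases, 47903 of them lower and 10781 higher in NHD13. Its header does not say which side is which. The sides were read from the order in which the authors named the comparison, and the 2 sides that this reading gives to NHD13, here and in the table against NHD13 cells that lack Setd2, held values within 0.001 of each other in 99.4% of 4028 shared regions. If the reading were wrong, every direction of methylation given here would turn round. With 1 library a group there is no replicate error, and the coverage behind each value is not in that table. A promoter was taken as 250 bases before to 50 bases after a RefSeq transcript start (mouse GRCm38.p6), and 10811 of the tested genes had at least 1 listed. Among these genes 7.33% were at least 2-fold higher and 15.5% at least 2-fold lower in NHD13 RNA. Of the 267 genes whose promoters overlapped regions of lower methylation in NHD13 only, 72 were at least 2-fold higher (27.0%) and 40 at least 2-fold lower (15.0%), with a median of 0.24. Of the 443 genes whose promoters overlapped regions of higher methylation only, 35 were at least 2-fold higher (7.90%) and 140 at least 2-fold lower (31.6%), with a median of -0.31. A further 11 genes had both. The share of falls beside lower methylation was therefore close to its background, and so was the share of rises beside higher methylation.

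**Figure D1:**
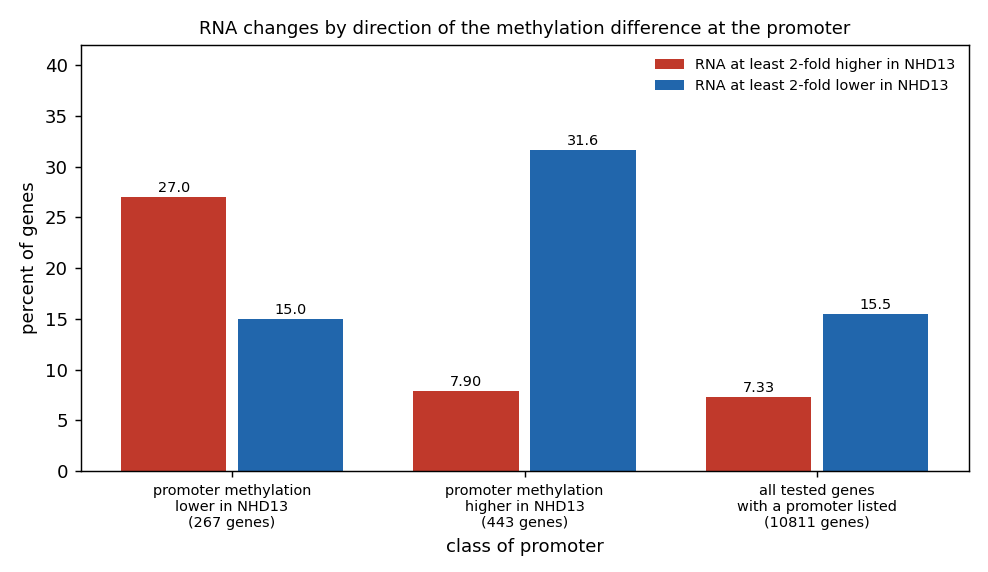
Percent of genes (y axis) whose RNA was at least 2-fold higher (red) or at least 2-fold lower (blue) in NHD13, by the direction of the methylation difference at the promoter (x axis). Rises reached 27.0% beside lower methylation and falls 31.6% beside higher methylation, against 7.33% and 15.5% of all 10811 genes.

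Promoter sequences are shown for 4 of these genes, chosen after their values were seen, with both directions and an exception among them. They are RefSeq sequences of GRCm38.p6, written 5′ to 3′ on the strand of the gene, and the capitals mark CpG sites inside the region that differs in methylation.
Mst1r, chr9:107914753-107915052, plus strand: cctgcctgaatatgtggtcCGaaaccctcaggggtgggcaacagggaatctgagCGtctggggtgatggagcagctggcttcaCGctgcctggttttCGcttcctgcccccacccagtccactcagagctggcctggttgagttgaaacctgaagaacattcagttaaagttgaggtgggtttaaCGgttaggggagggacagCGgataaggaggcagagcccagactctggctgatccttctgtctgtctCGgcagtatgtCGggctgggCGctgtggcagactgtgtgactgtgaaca
Gcnt2, chr13:40886508-40886807, plus strand: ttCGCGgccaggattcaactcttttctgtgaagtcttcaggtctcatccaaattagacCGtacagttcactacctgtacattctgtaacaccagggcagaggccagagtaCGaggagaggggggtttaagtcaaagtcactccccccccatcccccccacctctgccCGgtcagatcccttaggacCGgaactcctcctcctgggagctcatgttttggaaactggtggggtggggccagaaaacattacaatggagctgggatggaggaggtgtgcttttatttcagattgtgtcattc
Fkbp9, chr6:56831809-56832108, plus strand: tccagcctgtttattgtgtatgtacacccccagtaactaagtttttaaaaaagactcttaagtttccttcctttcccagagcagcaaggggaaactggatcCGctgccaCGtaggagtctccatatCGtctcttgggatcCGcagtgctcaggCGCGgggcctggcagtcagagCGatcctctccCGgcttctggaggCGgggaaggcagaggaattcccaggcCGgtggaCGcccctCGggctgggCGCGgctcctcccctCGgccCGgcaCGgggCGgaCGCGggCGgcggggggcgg
Mycn, chr12:12941787-12942086, minus strand: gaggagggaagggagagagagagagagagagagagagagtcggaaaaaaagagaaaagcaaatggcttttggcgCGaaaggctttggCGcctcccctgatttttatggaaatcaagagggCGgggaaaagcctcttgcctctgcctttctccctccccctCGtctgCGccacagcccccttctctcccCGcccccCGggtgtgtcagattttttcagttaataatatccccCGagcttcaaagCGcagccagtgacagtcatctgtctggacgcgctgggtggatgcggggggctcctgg
The Mst1r window lies inside the gene, around an internal transcript start, and all 9 of its CpG sites fall in a region of differing methylation. In the authors' deposited table the methylation of this region differed by -31.6 percentage points, NHD13 minus WT, that is, it was lower in NHD13. Among the other large rises, C5ar1, the receptor of the complement peptide C5a, had 61.4, 60.4 and 63.1 CPM in NHD13 libraries, against 1.62, 1.33 and 1.28 CPM in WT libraries (log2 5.44 ± 0.11, adjusted p = 1.46e-17).

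Gcnt2 and Fkbp9 had higher methylation at these windows and lower RNA in NHD13. Counts are per gene, so the RNA that starts at a given window was not measured apart. Gcnt2, a glycosyltransferase that branches surface sugar chains, had 3.24, 2.57 and 1.58 CPM in NHD13 libraries, against 55.9, 56.4 and 55.1 CPM in WT libraries (log2 -4.51 ± 0.15, adjusted p = 7.36e-15). Its window holds 6 CpG sites in a region with a difference of 27.9 points, NHD13 minus WT, in the authors' deposited table. For the CpG-rich Fkbp9 window, with 21 of 23 sites in the region, the authors' deposited table gives a difference of 20.2 points. Mycn went the other way. Of the 14 CpG sites of its window 9 lie in a region with a difference of -18.3 points in the authors' deposited table. The RNA of this MYC family oncogene had 0.702, 0.839 and 0.840 CPM in NHD13 libraries, against 15.4, 11.5 and 10.3 CPM in WT libraries (log2 -3.95 ± 0.21, adjusted p = 1.11e-11). A case of higher methylation beside higher RNA was G6pdx, the first enzyme of the pentose phosphate pathway, with a promoter difference of 24.0 points in the authors' deposited table.

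Transcription factors split by family. In the C/EBP family, which activates granule protein genes as granulocytes mature, 4 of 6 genes rose and 1 fell. Cebpe, needed for secondary granules, had 188, 193 and 216 CPM in NHD13 libraries, against 28.4, 28.04 and 27.6 CPM in WT libraries (log2 2.83 ± 0.07, adjusted p = 4.30e-16). Cebpd had 195, 192 and 216 CPM in NHD13 libraries, against 69.02, 61.6 and 61.8 CPM in WT libraries (log2 1.65 ± 0.07, adjusted p = 4.01e-13), and Cebpb, the factor of emergency granulopoiesis, had 108, 113 and 143 CPM in NHD13 libraries, against 63.2, 52.9 and 59.2 CPM in WT libraries (log2 1.05 ± 0.11, adjusted p = 3.38e-07). For these 3 genes every NHD13 library lay above every WT library. Gfi1, a repressor that favours granulocytes over monocytes, had 109.7, 84.5 and 115 CPM in NHD13 libraries, against 31.8, 23.2 and 23.4 CPM in WT libraries (log2 1.98 ± 0.12, adjusted p = 5.26e-09). Spi1, the gene of the myeloid factor PU.1, rose less (log2 0.89 ± 0.16, adjusted p = 5.51e-04).

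Irf8, which directs progenitors to monocytes and dendritic cells, had 46.8, 39.4 and 47.2 CPM in NHD13 libraries, against 250.3, 206 and 219.6 CPM in WT libraries (log2 -2.34 ± 0.08, adjusted p = 1.96e-14). Irf5 and Irf1, factors of the interferon response, also fell (log2 -1.70 ± 0.14 and log2 -1.07 ± 0.07). In the IRF family as a whole 6 of 9 genes fell, 4 of them at least 2-fold (44.4%), and none rose. Dendritic cell markers fell alongside: 11 of 12 fell and 1 rose, with a summed level of 151 to 181 CPM per library total in NHD13 and 721 to 837 CPM in WT. Irf8 is a member of that marker list, and what the other cells contribute to its fall was not tested.

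Among factors known from stem cells and early progenitors, Gata2, which maintains stem cells and primes mast cells, had 14.4, 12.01 and 18.5 CPM in NHD13 libraries, against 151, 98.7 and 109 CPM in WT libraries (log2 -2.99 ± 0.18, adjusted p = 6.07e-08). Sox4, a factor of lymphoid and early progenitors, had 16.4, 13.004 and 19.1 CPM in NHD13 libraries, against 148, 89.7 and 98.5 CPM in WT libraries (log2 -2.79 ± 0.20, adjusted p = 8.01e-07). Satb1, a chromatin organizer of stem and lymphoid cells, had 8.48, 9.33 and 10.2 CPM in NHD13 libraries, against 42.4, 51.8 and 45.3 CPM in WT libraries (log2 -2.31 ± 0.09, adjusted p = 1.73e-13). NHD13 and WT libraries did not overlap in any of the 3, although WT library 1 was the highest WT library for Gata2 and Sox4. Ikzf2, the gene of the Ikaros family member Helios, fell too (log2 -2.45 ± 0.12). In the SOX and TCF/LEF list 6 of 10 tested genes fell, all 6 at least 2-fold (60.0%), and 1 rose, with a median of -1.05. With gene length fitted 3 genes of that list were at least 2-fold lower, and on log2(FPKM + 1) values 1 gene was.

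Nuclear receptors, ligand-gated factors for steroids, retinoids and lipids, fell in 15 of 30 tested cases, 12 of them at least 2-fold (40.0%; 4 on log2(FPKM + 1) values). Nr1h2, the liver X receptor beta, was the single gene of the list that rose, and its value was below 0 on both FPKM scales. Nr4a1, an immediate early orphan receptor, had 11.2, 9.96 and 14.7 CPM in NHD13 libraries, against 159, 111 and 124 CPM in WT libraries (log2 -3.46 ± 0.15, adjusted p = 1.62e-10). The clock repressor gene Nr1d2 fell as well (log2 -1.78 ± 0.14). Of the RUNX factors and their partners 5 of 6 fell and none rose. Runx1 (log2 -0.72 ± 0.08), Runx2 (log2 -1.42 ± 0.12) and Runx3 (log2 -0.49 ± 0.07) fell together with their shared DNA-binding partner Cbfb (log2 -0.82 ± 0.06) and the corepressor Cbfa2t3 (log2 -1.40 ± 0.10). SMAD factors, the effectors of TGF-beta and BMP receptors, fell in 6 of 7 cases with a median of -0.81.

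HOX genes rose in 12 of 17 tested cases, 9 of them at least 2-fold (52.9%), and none fell. On log2(FPKM + 1) values 2 were at least 2-fold higher. The tested genes held 9 of the HOXA, 3 of the HOXB and 5 of the HOXC cluster, and none of the HOXD cluster passed the filter. Of these, 5 HOXA, 2 HOXB and all 5 HOXC genes rose. Hoxc5 had 11.3, 11.5 and 11.4 CPM in NHD13 libraries, against 0, 0 and 0 CPM in WT libraries, at least 279-fold higher when the WT group is set to 3 counts. Hoxc4 had 3.35, 2.46 and 2.47 CPM in NHD13 libraries, against 0, 0 and 0 CPM in WT libraries, at least 67.5-fold higher on the same basis. Hoxc6, Hoxc8 and Hoxc9 reached at most 5.61 CPM in an NHD13 library and had no more than 0.257 CPM in any WT library. Genes without WT counts can pass the filter only through other groups, so the count of HOXC rises is no support by itself. Among the HOXA genes, which are on in normal progenitors, Hoxa7 had 72.7, 74.8 and 85.3 CPM in NHD13 libraries, against 31.3, 27.6 and 29.3 CPM in WT libraries (log2 1.40 ± 0.08, adjusted p = 1.80e-11), and Hoxa9 had 83.9, 84.9 and 84.6 CPM in NHD13 libraries, against 44.5, 44.3 and 48.2 CPM in WT libraries (log2 0.89 ± 0.06, adjusted p = 6.18e-10). The HOXC genes other than Hoxc5 were named after their values were seen.

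Pbx3, a DNA-binding partner of HOX proteins, had 28.9, 29.5 and 26.1 CPM in NHD13 libraries, against 3.36, 4.07 and 3.85 CPM in WT libraries (log2 2.90 ± 0.10, adjusted p = 1.10e-14), with no overlap between the groups. The Id proteins, which block E proteins from binding DNA, split: Id1 had 89.7, 97.5 and 104 CPM in NHD13 libraries, against 14.6, 13.998 and 16.4 CPM in WT libraries (log2 2.69 ± 0.09, adjusted p = 5.48e-15), and Id2 rose (log2 1.60 ± 0.08). Id3 fell (log2 -1.57 ± 0.18, adjusted p = 7.22e-07).

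In the MYC and MAX network 4 of 12 tested genes rose, all at least 2-fold (33.3%), and 6 fell. The risers were the MAX dimerization genes Mxd1 (log2 1.17 ± 0.10), Mxd3 (log2 1.05 ± 0.13) and Mxi1 (log2 1.01 ± 0.08), which oppose MYC, and Mlx (log2 1.11 ± 0.06). Myc itself had 179, 152 and 203 CPM in NHD13 libraries, against 377, 276 and 297 CPM in WT libraries (log2 -0.83 ± 0.11, adjusted p = 2.73e-05). Of 21 genes of the E2F, RB and DREAM list 11 rose and 3 fell, with a median of 0.24. E2f2 had 19.9, 17.2 and 19.03 CPM in NHD13 libraries, against 6.15, 5.11 and 5.82 CPM in WT libraries (log2 1.72 ± 0.10, adjusted p = 7.57e-11), and Mybl2, an activator of G2/M genes, rose (log2 1.28 ± 0.13). Among 333 tested Krueppel-type zinc finger genes with a Zfp symbol, many of them repressors of repeats, 23 rose and 134 fell. Of all genes 25.3% rose and 28.7% fell. None of the Zfp genes rose by 2-fold, beside 7.15% of all genes, and 53 fell by 2-fold (15.9%). Only this last share equals its background, and the median of the list was -0.28, against -0.04 for all genes.

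**Figure D2:**
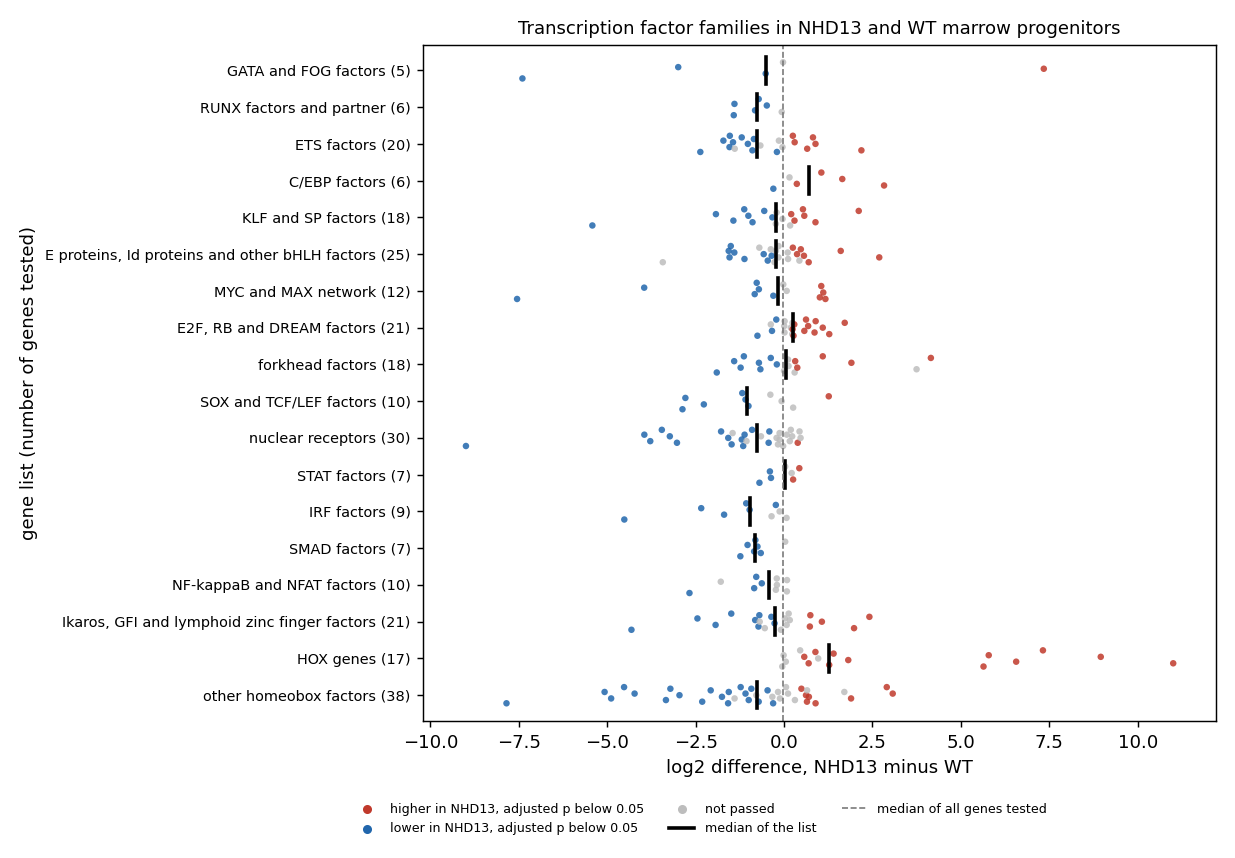
Log2 difference of NHD13 minus WT (x axis) for each tested gene of 18 transcription factor lists (y axis, with the number of genes tested). Red points rose, blue points fell and grey points did not pass; the black bar is the list's median and the dashed line the median of all genes at -0.04. HOX and C/EBP genes lie mostly to the right, and SOX and TCF/LEF, IRF, SMAD and RUNX genes mostly to the left.

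**Figure D3:**
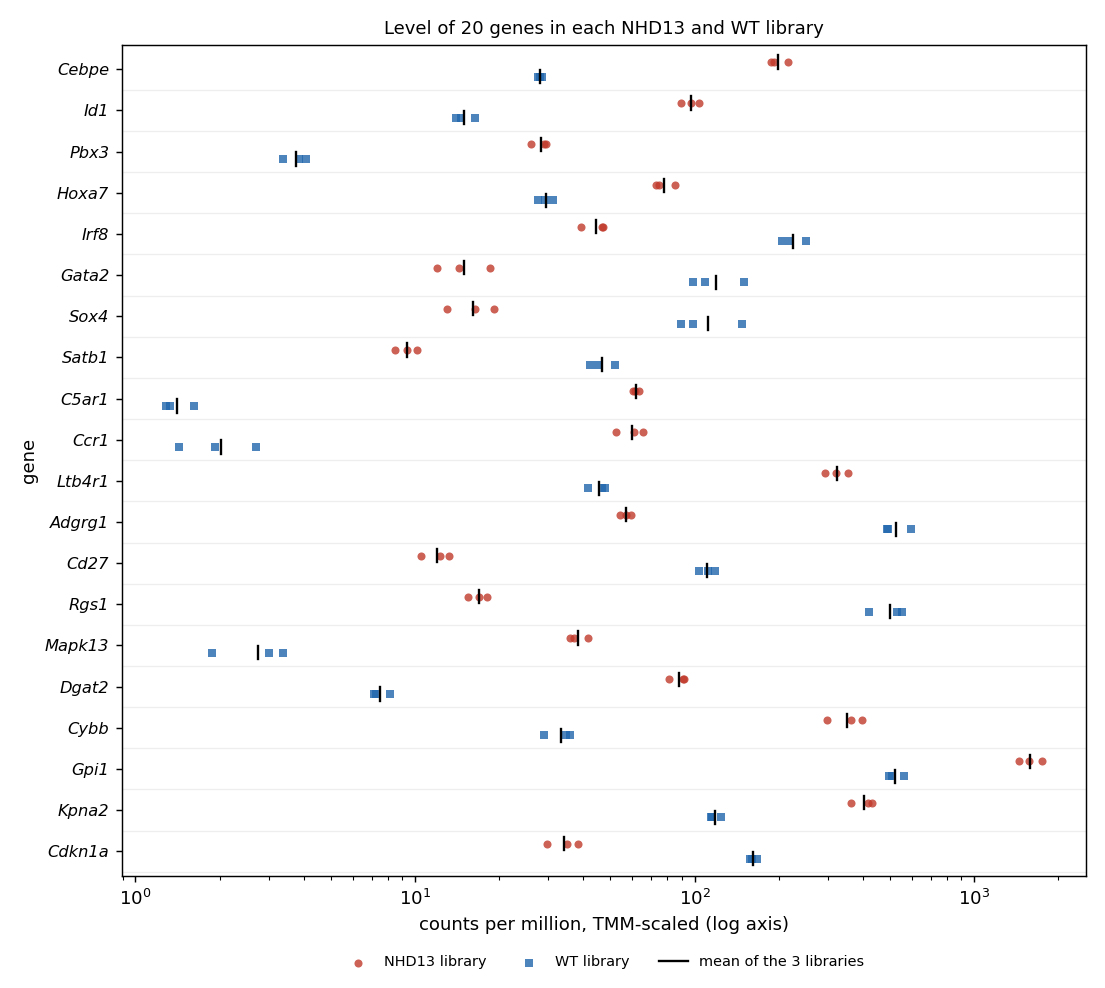
Level of 20 genes in CPM on a log axis (x axis), with the 3 NHD13 libraries as red circles above the 3 WT libraries as blue squares in each row, and the mean of 3 libraries as a black bar. In all 20 genes the libraries of the 2 groups are separate, which the rule for naming genes required of most of them. C5ar1 lay at 60.4 to 63.1 CPM in NHD13 and 1.28 to 1.62 CPM in WT. Rgs1 lay at 15.5 to 18.1 CPM in NHD13 and 420.0 to 555 CPM in WT.

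Receptors for chemoattractants and lipid mediators rose and fell in similar numbers. Of 34 tested genes, 14 rose, 10 of them at least 2-fold (29.4%), and 12 fell, 6 of them at least 2-fold (17.6%). Ltb4r1, the leukotriene B4 receptor of neutrophils, had 320.4, 294 and 355 CPM in NHD13 libraries, against 47.8, 41.5 and 46.8 CPM in WT libraries (log2 2.83 ± 0.08, adjusted p = 5.39e-16). Gpr84, a receptor for medium-chain fatty acids, had 53.3, 62.4 and 65.7 CPM in NHD13 libraries, against 4.87, 4.94 and 3.94 CPM in WT libraries (log2 3.72 ± 0.12, adjusted p = 4.88e-15). The short-chain fatty acid receptor gene Ffar2 also rose (log2 2.63 ± 0.11), as did Fpr1 (log2 3.66 ± 0.23) and Fpr2 (log2 3.86 ± 0.31, and 4.60 without WT library 2), receptors of formylated bacterial peptides. Other members fell. S1pr1, which guides cells out along sphingosine-1-phosphate gradients, had 2.54, 1.84 and 1.88 CPM in NHD13 libraries, against 19.9, 22.1 and 24.8 CPM in WT libraries (log2 -3.42 ± 0.14, adjusted p = 3.99e-13). Ptger3, a prostaglandin E2 receptor, had 0.864, 1.26 and 0.593 CPM in NHD13 libraries, against 20.6, 19.98 and 21.6 CPM in WT libraries (log2 -4.51 ± 0.18, adjusted p = 1.57e-13).

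Chemokine receptors fell in 9 of 16 tested cases, all at least 2-fold (56.2%), and rose in 5, with a median of -1.53, or -1.49 relative to that of all genes. On log2(FPKM + 1) values 1 was at least 2-fold lower, and the relative median was -0.0062. It was -0.47 on log2(FPKM + 0.1) values. Ccr1 had 60.9, 65.6 and 52.4 CPM in NHD13 libraries, against 1.43, 2.70 and 1.92 CPM in WT libraries (log2 4.89 ± 0.15, adjusted p = 3.39e-14), and Cxcr2, the receptor by which neutrophils leave the marrow, had 25.1, 27.1 and 21.6 CPM in NHD13 libraries, against 5.07, 6.23 and 6.29 CPM in WT libraries (log2 2.07 ± 0.11, adjusted p = 1.86e-11). Ccr2, the receptor of egressing monocytes, had 12.1, 11.9 and 10.4 CPM in NHD13 libraries, against 27.2, 30.6 and 26.9 CPM in WT libraries (log2 -1.30 ± 0.09, adjusted p = 3.61e-10). The 12 monocyte and macrophage markers moved both ways, with 3 that rose and 8 that fell. Their summed level of 4464 to 5757 CPM per library total in NHD13 and 1760 to 2052 CPM in WT rests on Ly6c2 (log2 2.12 ± 0.10), which has close paralogs.

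Among 40 tested cytokine receptor genes 11 rose, 4 of them at least 2-fold, and 22 fell, 12 of them at least 2-fold (30.0%). Of genes between 1 and 10 CPM 30.5% were at least 2-fold lower, and the list was not matched for level. The risers included Il1r2, a decoy receptor that takes up interleukin 1, with 69.4, 63.2 and 63.5 CPM in NHD13 libraries, against 4.99, 5.07 and 5.26 CPM in WT libraries (log2 3.68 ± 0.09, adjusted p = 2.92e-16). Csf3r, the receptor of the granulocyte factor G-CSF, had 212, 217 and 234 CPM in NHD13 libraries, against 83.2, 71.9 and 75.6 CPM in WT libraries (log2 1.52 ± 0.07, adjusted p = 5.40e-13). Csf2ra, which binds GM-CSF, had 184, 159 and 215 CPM in NHD13 libraries, against 64.1, 43.9 and 48.2 CPM in WT libraries (log2 1.84 ± 0.14, adjusted p = 1.65e-07), and its signalling partner Csf2rb rose (log2 0.997 ± 0.07). The 3 granulocyte factor receptors were higher in every NHD13 library than in any WT library. Il27ra, the receptor chain of interleukin 27, fell and had 2.48, 2.57 and 2.37 CPM in NHD13 libraries, against 13.1, 12.5 and 13.6 CPM in WT libraries. All 8 tested megakaryocyte and platelet markers fell, and the 10 markers listed summed to 35.1 to 41.4 CPM per library total in NHD13 and 343 to 365 CPM in WT.

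Of 26 tested receptor tyrosine kinases 15 fell, 14 of them at least 2-fold (53.8%), and 2 rose, with a median of -1.63, or -1.59 relative to that of all genes. On log2(FPKM + 1) values 5 were at least 2-fold lower, and the relative median was -0.02. It was -0.54 on log2(FPKM + 0.1) values. Tek, the angiopoietin receptor TIE2 of stem cells, had 0, 0.0524 and 0 CPM in NHD13 libraries, against 8.24, 7.35 and 7.49 CPM in WT libraries (log2 -8.40 ± 0.57, adjusted p = 4.02e-10; log2 -10.44 without NHD13 library 2), and was named after its values were seen. Csf1r, the macrophage factor receptor, had 14.8, 11.5 and 15.7 CPM in NHD13 libraries, against 50.2, 39.3 and 39.1 CPM in WT libraries (log2 -1.61 ± 0.13, adjusted p = 1.20e-08). Pdgfrb fell (log2 -2.90 ± 0.14); it is also a marker of stroma, of which 5 of 9 tested markers fell, 3 rose, and Cdh5 and Emcn were at 0 in NHD13. The stromal and endothelial markers summed to 46.6 to 50.5 CPM per library total in NHD13 and 86.8 to 91.0 CPM in WT. Mst1r, described above, was the largest rise of the group.

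Adhesion receptors moved in both directions. Integrins fell in 15 of 23 tested cases, 10 of them at least 2-fold (43.5%; 3 on log2(FPKM + 1) values), and rose in 4. The beta 2 integrin chain of leukocytes, Itgb2, had 218, 190.4 and 227 CPM in NHD13 libraries, against 36.4, 32.4 and 33.6 CPM in WT libraries (log2 2.63 ± 0.08, adjusted p = 1.53e-15). Its partner Itgam, CD11b, had 15.2, 21.6 and 18.5 CPM in NHD13 libraries, against 2.36, 2.95 and 2.44 CPM in WT libraries (log2 2.84 ± 0.14, adjusted p = 2.92e-12), and the paralog Itgb2l had 77.2, 69.6 and 77.8 CPM in NHD13 libraries, against 1.12, 1.45 and 0.984 CPM in WT libraries (log2 5.97 ± 0.11, adjusted p = 2.82e-18). These 3 rises contrasted with Itga2b, CD41 of megakaryocytes and early progenitors, which had 6.48, 4.72 and 6.72 CPM in NHD13 libraries, against 80.04, 56.6 and 60.8 CPM in WT libraries (log2 -3.46 ± 0.15, adjusted p = 1.07e-11), and with Itgb7, the gut homing chain (log2 -2.54 ± 0.14). Adhesion G protein-coupled receptors fell in 7 of 15 tested cases and rose in 3. Their median lay 1.11 below that of all genes and turned to 0.04 above it on log2(FPKM + 1). Relative to all genes it was -0.30 on log2(FPKM + 0.1). Adgrg1, the GPR56 receptor of stem cells, had 56.96, 54.3 and 59.4 CPM in NHD13 libraries, against 597, 486 and 492 CPM in WT libraries (log2 -3.21 ± 0.08, adjusted p = 4.00e-16). Adgrl4 fell (log2 -2.52 ± 0.10) and Adgre5, CD97, rose (log2 1.52 ± 0.09).

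Semaphorins, plexins and neuropilins fell in 12 of 24 tested cases and rose in 3. Their median lay 1.12 below that of all genes and turned to 0.15 above it on log2(FPKM + 1). Relative to all genes it was -0.06 on log2(FPKM + 0.1). Sema4a, an immune semaphorin, had 152, 112 and 162 CPM in NHD13 libraries, against 24.2, 15.9 and 12.9 CPM in WT libraries (log2 3.002 ± 0.22, adjusted p = 9.63e-07), and its partner family member Plxnd1 rose (log2 1.96 ± 0.12). In the authors' deposited table the Sema4a promoter overlapped a region with a methylation difference of -26.0 percentage points, NHD13 minus WT. TNF receptor family genes rose in 10 of 21 tested cases and fell in 6. Cd27, a co-stimulatory receptor whose level separates early progenitors, had 10.5, 12.3 and 13.2 CPM in NHD13 libraries, against 104, 111 and 118 CPM in WT libraries (log2 -3.21 ± 0.09, adjusted p = 5.39e-16). Tnfrsf1b, TNF receptor 2, rose (log2 1.18 ± 0.12).

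Fc and paired immunoglobulin-like receptors, which tune myeloid activation through tyrosine motifs, rose in 25 of 45 tested cases, 21 of them at least 2-fold (46.7%), and fell in 12, 11 of them at least 2-fold (24.4%). The inhibitory receptor Cd300lf had 45.5, 45.4 and 48.2 CPM in NHD13 libraries, against 1.20, 1.70 and 2.05 CPM in WT libraries (log2 4.82 ± 0.12, adjusted p = 2.70e-16). The receptor pair Pilra and Pilrb1, which share ligands but signal in opposite ways, rose together (log2 4.54 ± 0.11 and log2 4.50 ± 0.15). At the other end, Siglech, a surface lectin of plasmacytoid dendritic cells, had 0.216, 0.210 and 0.0494 CPM in NHD13 libraries, against 17.5, 20.9 and 21.1 CPM in WT libraries (log2 -6.94 ± 0.32, adjusted p = 1.17e-12). C-type lectins and scavenger receptors fell in 22 of 51 tested cases, all at least 2-fold (43.1%, and 7 on log2(FPKM + 1) values). They rose in 10, 8 of them at least 2-fold (15.7%). Their median lay 0.21 below that of all genes and turned to 0.01 above it on log2(FPKM + 1). Relative to all genes it was -0.07 on log2(FPKM + 0.1). The inhibitory lectin Clec4a2 had 316, 355 and 281 CPM in NHD13 libraries, against 20.8, 25.6 and 21.5 CPM in WT libraries (log2 3.81 ± 0.09, adjusted p = 2.12e-16), and Clec12a, a myeloid inhibitory receptor, rose (log2 1.91 ± 0.09). Pilrb1 and Clec4a2 have close paralogs, so their reads may be shared. In the Toll-like and NOD-like group 19 of 49 rose and 16 fell, beside 25.3% and 28.7% of all genes, with a median of 0.08. At least 2-fold, 12 rose (24.5%) and 13 fell (26.5%). On log2(FPKM + 1) values 1 rose and 4 fell by 2-fold, and on log2(FPKM + 0.1) values 5 rose by 2-fold. Nod1, a sensor of bacterial cell wall, rose (log2 1.57 ± 0.11), Tlr4 rose (log2 1.43 ± 0.17) and Ly86, a partner of the Toll-like CD180, fell (log2 -1.35 ± 0.12).

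**Figure D4:**
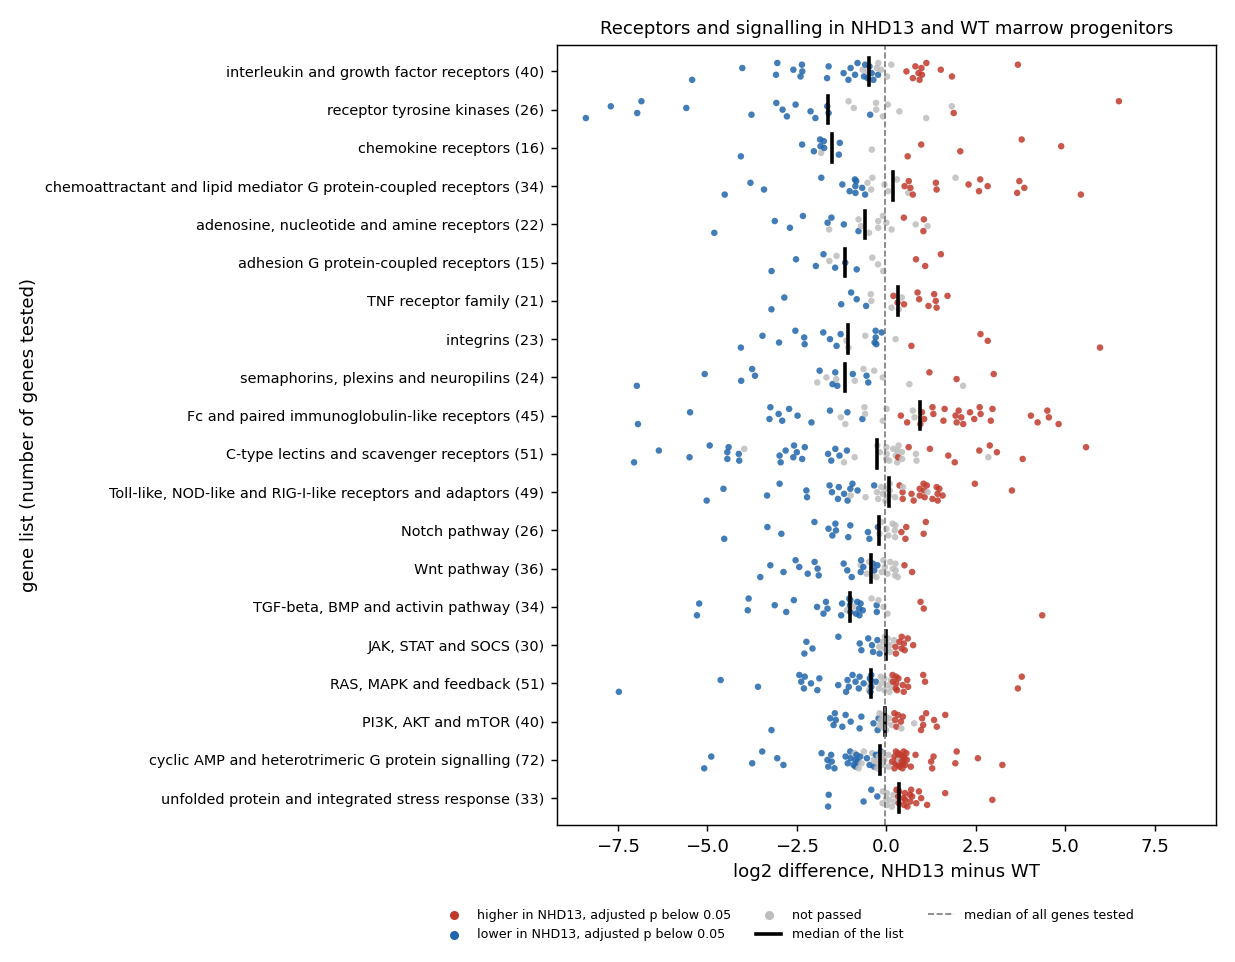
Log2 difference of NHD13 minus WT (x axis) for each tested gene of 20 receptor and signalling lists (y axis, with the number of genes tested). Red points rose, blue points fell and grey points did not pass; the black bar is the list's median and the dashed line the median of all genes. The medians range from -1.63 for receptor tyrosine kinases to 0.95 for Fc and paired receptors.

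Of 34 tested genes of the TGF-beta, BMP and activin pathway 25 fell, 17 of them at least 2-fold and 6 on log2(FPKM + 1) values, and 3 rose. Gdf3, a ligand of the family, had 2.86, 2.46 and 3.16 CPM in NHD13 libraries, against 40.02, 41.3 and 41.2 CPM in WT libraries (log2 -3.85 ± 0.12, adjusted p = 5.74e-15). The receptor gene Tgfbr2 fell (log2 -1.003 ± 0.14), as did the effector Smad3 (log2 -1.03 ± 0.12) and the feedback inhibitor Smad7 (log2 -1.24 ± 0.11). Bambi, a pseudoreceptor that blocks the pathway, had 108, 109.5 and 119.99 CPM in NHD13 libraries, against 55.95, 50.97 and 56.5 CPM in WT libraries (log2 1.05 ± 0.06, adjusted p = 6.62e-11). Ligand, receptor, effector and inhibitor genes thus all changed in this list. In the Wnt list 18 of 36 fell, 11 of them at least 2-fold (30.6%, and 1 on log2(FPKM + 1) values), and 2 rose, neither by 2-fold. By comparison, 15.9% of all genes and 30.5% of genes between 1 and 10 CPM were at least 2-fold lower. The list was not matched for level, so its share is not read as a result about the pathway. In the Notch list 13 of 26 fell and 5 rose; Maml3, a coactivator, fell (log2 -2.93 ± 0.14) and Numb, an inhibitor, rose (log2 1.10 ± 0.09).

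In the RAS and MAPK list 25 of 51 genes fell, 14 of them at least 2-fold (27.5%; 7 on log2(FPKM + 1) values), and 15 rose. Feedback inhibitors that ERK itself induces were among the falls: Dusp5 had 9.29, 7.92 and 10.1 CPM in NHD13 libraries, against 39.5, 38.3 and 39.95 CPM in WT libraries (log2 -2.10 ± 0.10, adjusted p = 2.48e-12), and Spry1 fell (log2 -1.87 ± 0.15). Mapk13, the p38 delta stress kinase, had 37.1, 35.9 and 41.5 CPM in NHD13 libraries, against 3.02, 3.36 and 1.88 CPM in WT libraries (log2 3.79 ± 0.14, adjusted p = 3.58e-14). Socs3, the inhibitor of G-CSF and interleukin 6 signals, fell (log2 -2.06 ± 0.14, adjusted p = 3.79e-10), while 9 of 30 JAK, STAT and SOCS genes rose and 11 fell. Rps6ka1, an effector kinase of ERK, had 435, 370.1 and 486 CPM in NHD13 libraries, against 179.96, 149 and 156 CPM in WT libraries (log2 1.41 ± 0.09, adjusted p = 4.89e-10).

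Among genes of G protein signals, Rgs1, which stops chemokine receptor signals, had 15.5, 18.1 and 17.01 CPM in NHD13 libraries, against 420.3, 555 and 529 CPM in WT libraries (log2 -4.89 ± 0.11, adjusted p = 2.39e-16). The G protein subunit gene Gng11 had 0.972, 0.682 and 0.494 CPM in NHD13 libraries, against 22.7, 25.4 and 25.02 CPM in WT libraries. Phosphodiesterases of cyclic AMP moved apart: Pde4b had 96.6, 109 and 108 CPM in NHD13 libraries, against 351, 360.2 and 389 CPM in WT libraries (log2 -1.81 ± 0.06, adjusted p = 3.02e-14), and Pde4d had 163, 155 and 132 CPM in NHD13 libraries, against 67.5, 57.6 and 59.7 CPM in WT libraries (log2 1.28 ± 0.09, adjusted p = 8.16e-10). In the cyclic AMP and G protein list as a whole 28 of 72 rose and 27 fell, which gives no common direction. Rac2, a hematopoietic small GTPase needed for neutrophil migration and oxidase, had 2159, 2297 and 2235 CPM in NHD13 libraries, against 770.5, 795 and 802 CPM in WT libraries (log2 1.499 ± 0.06, adjusted p = 9.46e-14). PI3K, AKT and mTOR genes rose and fell 13 times each of 40. Sesn1, an inhibitor of mTORC1, fell (log2 -1.47 ± 0.08), as did Foxo3, a factor that keeps stem cells quiescent (log2 -1.14 ± 0.11).

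The unfolded protein and integrated stress response list rose in 19 of 33 cases and fell in 5, with a median of 0.35. Xbp1, the factor spliced on stress of the endoplasmic reticulum, had 458, 428 and 487 CPM in NHD13 libraries, against 269, 231 and 229.8 CPM in WT libraries (log2 0.91 ± 0.07, adjusted p = 9.20e-10). Asns, asparagine synthetase, had 244, 239 and 217 CPM in NHD13 libraries, against 76.4, 72.4 and 74.9 CPM in WT libraries (log2 1.65 ± 0.06, adjusted p = 4.89e-14). Ppp1r15a, which lets translation resume, had 133, 131 and 146 CPM in NHD13 libraries, against 462, 385 and 401 CPM in WT libraries (log2 -1.61 ± 0.07, adjusted p = 1.62e-12).

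Glycolysis and lactate genes rose in 19 of 28 cases, 6 of them at least 2-fold (21.4%), and fell in 5, with a median of 0.43. Gpi1, phosphoglucose isomerase, had 1573, 1444 and 1746 CPM in NHD13 libraries, against 563, 509.7 and 498 CPM in WT libraries (log2 1.60 ± 0.08, adjusted p = 2.37e-12). Eno1, enolase, had 3369, 3033 and 3563 CPM in NHD13 libraries, against 1334, 1032 and 1038 CPM in WT libraries (log2 1.55 ± 0.09, adjusted p = 9.57e-11), and Slc16a3, the lactate exporter, had 28.9, 24.01 and 34.1 CPM in NHD13 libraries, against 5.18, 4.61 and 4.15 CPM in WT libraries (log2 2.64 ± 0.14, adjusted p = 8.10e-12). The hexokinase gene of myeloid cells, Hk3, rose (log2 1.4995 ± 0.12). In the pentose phosphate and NADPH list 12 of 14 tested genes rose, 3 of them at least 2-fold (21.4%), and 1 fell, with a median of 0.73. Its first enzyme G6pdx had 337, 338 and 318 CPM in NHD13 libraries, against 130.5, 136 and 145 CPM in WT libraries (log2 1.27 ± 0.06, adjusted p = 1.29e-12), and Pgd had 469, 411 and 509.8 CPM in NHD13 libraries, against 129.9, 121 and 117 CPM in WT libraries (log2 1.92 ± 0.08, adjusted p = 3.76e-13). Tkt and Taldo1, of the branch without oxidation, rose by less than 2-fold (log2 0.88 ± 0.07 and log2 0.90 ± 0.06). The falling member was Idh2, the mitochondrial isocitrate dehydrogenase that makes NADPH, with 357, 362 and 373 CPM in NHD13 libraries, against 556, 559 and 576 CPM in WT libraries (log2 -0.63 ± 0.05, adjusted p = 7.31e-09). Every NHD13 library lay above every WT library for the rising enzymes named here, and below them for Idh2.

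Among 12 tested genes of the phagocyte oxidase and related enzymes 10 rose, 8 of them at least 2-fold (66.7%), and 1 fell. Cybb, the catalytic subunit gp91phox, had 363, 398 and 297 CPM in NHD13 libraries, against 28.96, 34.8 and 35.8 CPM in WT libraries (log2 3.41 ± 0.10, adjusted p = 1.93e-14). Its membrane partner Cyba had 1610.3, 1758 and 1907 CPM in NHD13 libraries, against 452, 407 and 409 CPM in WT libraries (log2 2.06 ± 0.07, adjusted p = 2.68e-14), and the cytosolic subunits Ncf1 and Ncf4 rose (log2 2.47 ± 0.06 and log2 2.30 ± 0.06). The list holds Mpo, which is a neutrophil precursor marker. Of 44 tested glutathione and thioredoxin genes 21 rose and 15 fell. Gsr, glutathione reductase, had 1207, 1186 and 1254 CPM in NHD13 libraries, against 297, 282 and 273 CPM in WT libraries (log2 2.10 ± 0.06, adjusted p = 4.57e-16), Gpx3 had 173, 182 and 197 CPM in NHD13 libraries, against 23.9, 19.9 and 18.6 CPM in WT libraries (log2 3.14 ± 0.09, adjusted p = 5.39e-16) and the peroxiredoxin gene Prdx5 had 1181, 1276 and 1259.5 CPM in NHD13 libraries, against 244, 257 and 259 CPM in WT libraries (log2 2.29 ± 0.06, adjusted p = 2.45e-16). Prdx1, which also has processed copies, had 606, 669 and 562 CPM in NHD13 libraries, against 1059.8, 1176 and 1095 CPM in WT libraries (log2 -0.86 ± 0.06, adjusted p = 1.60e-09). Peroxiredoxin genes thus changed in opposite directions within the same libraries.

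In triglyceride, lipid droplet and phospholipid synthesis 19 of 40 tested genes rose, 11 of them at least 2-fold (27.5%; 4 on log2(FPKM + 1) values), and 10 fell, 3 of them at least 2-fold (7.50%). Mogat2, which acylates monoglycerides, had 98.5, 96.4 and 107 CPM in NHD13 libraries, against 6.73, 6.85 and 5.09 CPM in WT libraries (log2 4.01 ± 0.11, adjusted p = 9.21e-16), and Dgat2, which makes triglycerides, had 90.98, 80.8 and 92.1 CPM in NHD13 libraries, against 8.12, 7.14 and 7.27 CPM in WT libraries (log2 3.55 ± 0.09, adjusted p = 1.17e-16). Fabp5, a fatty acid carrier, had 72.7, 72.5 and 71.04 CPM in NHD13 libraries, against 185, 227 and 238 CPM in WT libraries (log2 -1.59 ± 0.08, adjusted p = 1.97e-12). Eicosanoid enzymes rose in 9 of 21 tested cases and fell in 9. Lta4h and Alox5, which make leukotriene B4, rose: Lta4h had 2297, 2439.8 and 2318 CPM in NHD13 libraries, against 653, 669 and 665 CPM in WT libraries (log2 1.83 ± 0.05, adjusted p = 2.40e-15), and Alox5 rose 2.98-fold (log2 1.57 ± 0.15). The thromboxane synthase gene Tbxas1 had 13.1, 13.6 and 11.8 CPM in NHD13 libraries, against 47.4, 38.9 and 40.7 CPM in WT libraries (log2 -1.72 ± 0.10, adjusted p = 5.93e-11). Rises of leukotriene B4 enzymes thus stood beside the rise of its receptor gene Ltb4r1, described above.

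Of 30 tested genes of the tricarboxylic acid cycle 14 rose and 9 fell, and none rose by 2-fold. Their median lay 0.15 above that of all genes, 0.09 above it on log2(FPKM + 0.1) and 0.06 below it on log2(FPKM + 1). Fatty acid oxidation, with 9 of 35 genes that rose and 8 that fell, and cholesterol synthesis, with 10 of 32 that rose and 9 that fell, had no common direction. Purine genes rose in 14 of 24 tested cases, 4 of them at least 2-fold (16.7%), and fell in 2. Pyrimidine and deoxynucleotide genes rose in 13 of 25 and fell in 4, with 2 at least 2-fold higher and 3 at least 2-fold lower. Gda, guanine deaminase, had 121, 126 and 112 CPM in NHD13 libraries, against 18.1, 28.3 and 26.1 CPM in WT libraries (log2 2.31 ± 0.12, adjusted p = 4.78e-10). Gatm, which starts creatine synthesis, had 609, 603 and 589.7 CPM in NHD13 libraries, against 179, 193 and 181 CPM in WT libraries (log2 1.70 ± 0.06, adjusted p = 9.28e-15).

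Of 245 tested solute carriers 82 rose, 28 of them at least 2-fold (11.4%), and 74 fell, 45 of them at least 2-fold (18.4%). On log2(FPKM + 1) values 7 were at least 2-fold higher and 20 at least 2-fold lower, and on log2(FPKM + 0.1) values 13 were at least 2-fold higher. Of all genes 25.3% rose and 28.7% fell, with 7.15% and 15.9% at least 2-fold. The falls of the list were thus near their background. Slc40a1, the iron exporter ferroportin, had 68.1, 62.2 and 61.01 CPM in NHD13 libraries, against 17.01, 15.4 and 16.5 CPM in WT libraries (log2 1.97 ± 0.09, adjusted p = 5.99e-13), and Slco4c1, an organic anion carrier, had 14.8, 12.7 and 11.5 CPM in NHD13 libraries, against 0.425, 0.249 and 0.214 CPM in WT libraries. Slc22a3, a carrier of organic cations and amines, fell (log2 -3.07 ± 0.14), as did Slc18a2, which loads monoamines into vesicles (log2 -2.56 ± 0.13). Mast cell and basophil markers fell beside Slc22a3 and Slc18a2: Cpa3 (log2 -2.62 ± 0.10), Mcpt8 (log2 -2.36 ± 0.09) and Prss34 (log2 -2.62 ± 0.13). Of the 12 mast cell, basophil and eosinophil markers 6 fell and 5 rose. Their summed level, not TMM-scaled, was 820 to 928 CPM per library total in NHD13 and 1018 to 1097 CPM in WT. TMM scaling would raise the NHD13 sums relative to WT, so these sums do not show a fall of the markers as a whole. The part of these markers in the falls of the carriers was not tested. Aldh3b1, an aldehyde dehydrogenase, had 59.4, 59.4 and 69.8 CPM in NHD13 libraries, against 6.96, 5.15 and 4.62 CPM in WT libraries (log2 3.49 ± 0.13, adjusted p = 5.04e-14).

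Genes of chromosome segregation and replication rose, mostly by less than 2-fold. Kinetochore and spindle checkpoint genes rose in 35 of 37 cases, none fell, and 2 rose by 2-fold (5.41%), with a median of 0.54. Ska1, which holds kinetochores on microtubules, had 60.9, 60.8 and 63.7 CPM in NHD13 libraries, against 24.9, 27.2 and 27.8 CPM in WT libraries (log2 1.21 ± 0.08, adjusted p = 1.59e-10), and Spc25 had 140.5, 141 and 128 CPM in NHD13 libraries, against 61.9, 66.8 and 66.9 CPM in WT libraries (log2 1.07 ± 0.07, adjusted p = 8.86e-11). Origin licensing and replication genes rose in 22 of 28 cases and none fell or reached 2-fold, with a median of 0.41. Cdc45, a subunit of the replicative helicase, rose (log2 0.79 ± 0.06). The share of 2-fold rises in both lists was therefore below the background of 7.15%, while the share of any rise, beside 25.3%, was above it. On log2(FPKM + 1) values the medians of both lists stayed above that of all genes.

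Of 24 tested cyclins 11 rose, 5 fell and 8 did not pass, and 6 were at least 2-fold higher, against 2 on both FPKM scales. Ccna2, of S phase and G2, had 233, 209 and 220.3 CPM in NHD13 libraries, against 92.8, 102 and 100.3 CPM in WT libraries (log2 1.17 ± 0.06, adjusted p = 6.16e-12), Ccne1 rose (log2 1.01 ± 0.06) and Ccnf, which directs degradation in G2, rose (log2 1.70 ± 0.09). Ccnd2, a D cyclin that couples growth factor signals to G1, had 139, 131 and 153 CPM in NHD13 libraries, against 348, 301 and 309.6 CPM in WT libraries (log2 -1.18 ± 0.07, adjusted p = 2.62e-11). The phosphatase gene Cdc25a rose (log2 1.07 ± 0.08). Of 7 tested cyclin-dependent kinase inhibitors 2 rose and 3 fell. Cdkn1a, p21, had 29.6, 34.9 and 38.2 CPM in NHD13 libraries, against 168, 158 and 160.4 CPM in WT libraries (log2 -2.24 ± 0.09, adjusted p = 8.74e-14), and Cdkn1b, p27, fell (log2 -0.88 ± 0.11). Cdkn3, a phosphatase that peaks in mitosis, rose (log2 1.38 ± 0.09). Every NHD13 library lay below every WT library for Cdkn1a and Cdkn1b, and above every WT library for Cdkn3.

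**Figure D5:**
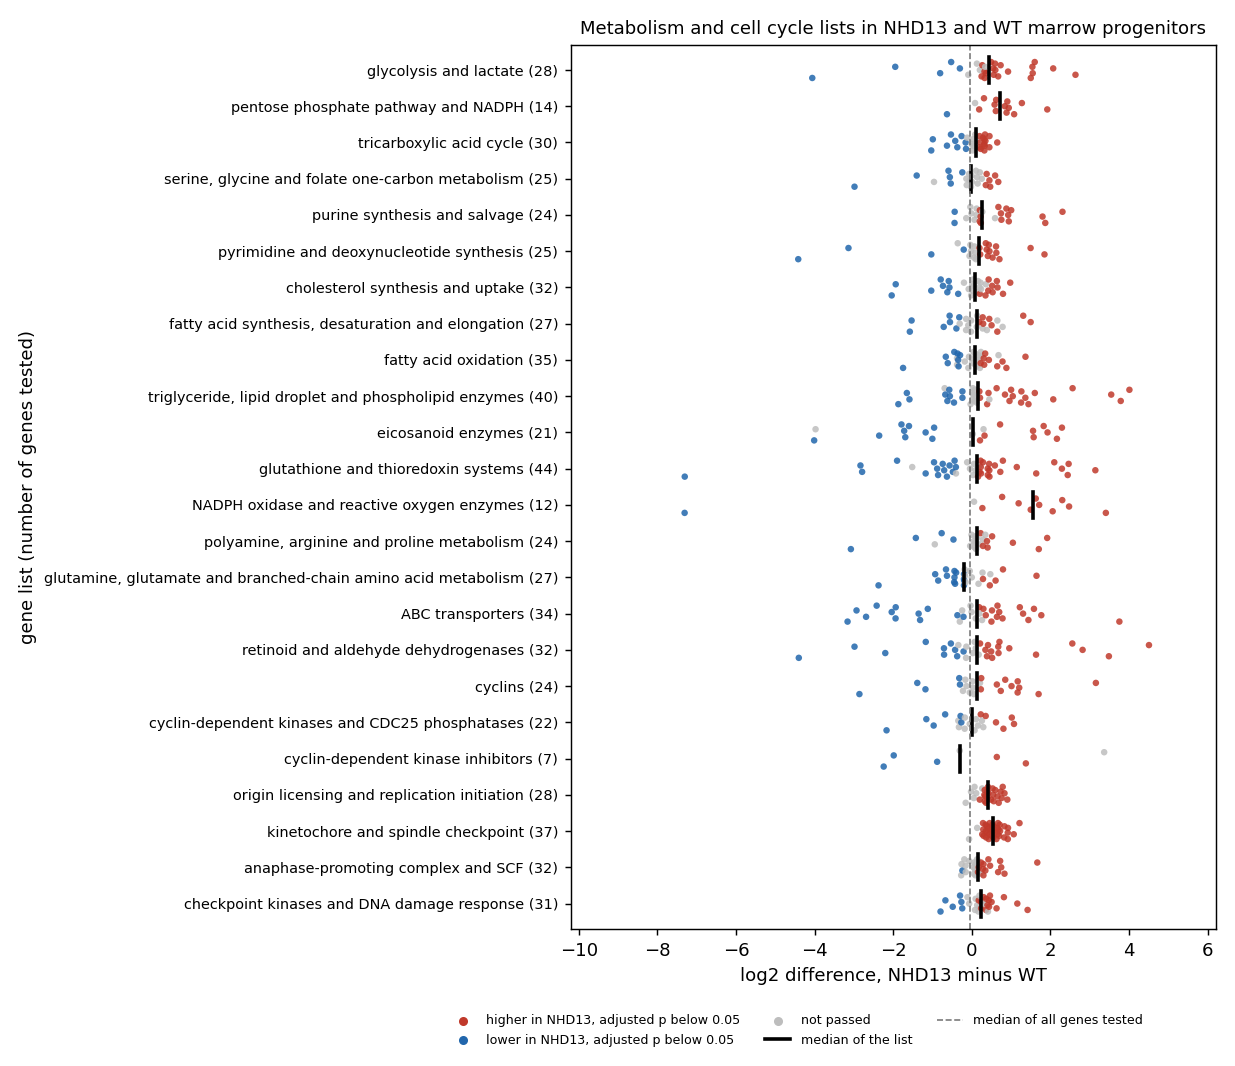
Log2 difference of NHD13 minus WT (x axis) for each tested gene of 24 metabolism and cell cycle lists (y axis, with the number of genes tested). Red points rose, blue points fell and grey points did not pass; the black bar is the list's median and the dashed line the median of all genes. Kinetochore genes form a narrow cluster around 0.54, while the NADPH oxidase list has the largest median, at 1.56.

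Nuclear transport genes rose in 31 of 57 tested cases and fell in 6, with a single 2-fold rise. This was Kpna2, an importin alpha, with 432, 418 and 363 CPM in NHD13 libraries, against 125, 114 and 115 CPM in WT libraries (log2 1.77 ± 0.07, adjusted p = 6.40e-14). Cytosolic aminoacyl-tRNA synthetases rose in 14 of 22 tested cases and none fell, with Aars at 0.87 ± 0.09 on the log2 scale. Ribosome biogenesis genes mostly did not pass, with 18 of 59 that rose, 2 that fell and 39 that did not pass. Among chromatin genes, Chd7, a remodeller, had 98.9, 81.5 and 101 CPM in NHD13 libraries, against 20.2, 12.96 and 14.5 CPM in WT libraries (log2 2.56 ± 0.13, adjusted p = 3.78e-10), and Chd3, of the NuRD complex, had 3.24, 4.46 and 4.99 CPM in NHD13 libraries, against 19.9, 21.1 and 18.6 CPM in WT libraries (log2 -2.23 ± 0.15, adjusted p = 2.44e-10). In the SWI/SNF and CHD list as a whole 8 of 37 tested genes rose and 16 fell. Of 21 tested genes of the miRNA pathway and LIN28 axis 8 rose, 7 fell and 6 did not pass. The RNA-binding protein gene Igf2bp3 had 24.03, 24.3 and 26.1 CPM in NHD13 libraries, against 0.696, 0.665 and 1.11 CPM in WT libraries (log2 4.91 ± 0.13, adjusted p = 6.21e-16), and Lin28b, which blocks let-7 microRNAs and was named after its values were seen, had 8.53, 9.81 and 8.16 CPM in NHD13 libraries, against 0.193, 0.125 and 0 CPM in WT libraries (log2 6.27 ± 0.27, adjusted p = 5.83e-13; log2 7.003 without WT library 1). Arid3a, a let-7 target in fetal lymphoid cells, had 49.2, 39.8 and 51.7 CPM in NHD13 libraries, against 14.5, 12.7 and 14.03 CPM in WT libraries (log2 1.77 ± 0.09, adjusted p = 1.29e-11).

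Lysosomal genes rose in 32 of 55 tested cases and fell in 15, with a median of 0.37. The sialidase gene Neu1 had 146, 129 and 161 CPM in NHD13 libraries, against 44.7, 33.3 and 35.4 CPM in WT libraries (log2 1.94 ± 0.10, adjusted p = 3.26e-11), and Cd63, a tetraspanin of granules, had 2405, 2514 and 2344 CPM in NHD13 libraries, against 666, 728 and 704 CPM in WT libraries (log2 1.79 ± 0.06, adjusted p = 7.46e-15). The cathepsin gene Ctss had 5.29, 7.45 and 7.76 CPM in NHD13 libraries, against 51.04, 52.3 and 55.8 CPM in WT libraries (log2 -2.95 ± 0.11, adjusted p = 8.47e-14), and Ctsf fell (log2 -4.42 ± 0.26). In the actin and myosin list 30 of 84 tested genes rose and 26 fell. Gsn, gelsolin, which severs actin filaments, had 129.5, 121 and 142 CPM in NHD13 libraries, against 26.95, 24.9 and 25.6 CPM in WT libraries (log2 2.34 ± 0.08, adjusted p = 7.13e-15), while Tpm4, a tropomyosin of platelets and early cells, had 4.81, 7.13 and 6.58 CPM in NHD13 libraries, against 39.8, 43.4 and 40.3 CPM in WT libraries (log2 -2.73 ± 0.12, adjusted p = 1.04e-12). Tuba4a, a tubulin gene, had 3059, 3058 and 2992 CPM in NHD13 libraries, against 1163, 1101 and 1081 CPM in WT libraries (log2 1.45 ± 0.06, adjusted p = 1.61e-13).

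Complement and coagulation genes fell in 14 of 32 tested cases, 13 of them at least 2-fold (40.6%), and rose in 6, all at least 2-fold (18.8%). C3, the central complement protein, had 183, 185 and 183 CPM in NHD13 libraries, against 14.5, 18.4 and 18.1 CPM in WT libraries (log2 3.44 ± 0.08, adjusted p = 1.03e-16), and F10, coagulation factor X, had 108, 110.2 and 105 CPM in NHD13 libraries, against 17.2, 15.7 and 17.2 CPM in WT libraries (log2 2.69 ± 0.08, adjusted p = 2.45e-15). F2r, the thrombin receptor, had 9.07, 8.02 and 10.1 CPM in NHD13 libraries, against 71.7, 66.2 and 64.3 CPM in WT libraries (log2 -2.89 ± 0.09, adjusted p = 1.86e-15). In the authors' deposited table the F10 promoter overlapped a region with a methylation difference of -43.3 percentage points, NHD13 minus WT. Extracellular matrix, protease and inhibitor genes fell in 34 of 81 tested cases and rose in 19. Their median lay 0.32 below that of all genes. It turned to 0.14 above it on log2(FPKM + 1) and to 0.04 above it on log2(FPKM + 0.1). Serpinb1a, an inhibitor of neutrophil elastase, had 2302, 2623 and 1981 CPM in NHD13 libraries, against 466, 480.5 and 449.5 CPM in WT libraries (log2 2.31 ± 0.08, adjusted p = 2.35e-14). Serpinf1, a secreted factor against vessel growth, had 3.13, 3.57 and 3.02 CPM in NHD13 libraries, against 117, 108 and 109.97 CPM in WT libraries (log2 -5.11 ± 0.11, adjusted p = 1.70e-17), and Serpina3g, of a family with near-identical copies, fell (log2 -3.85 ± 0.06).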

How the data were processed

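The deposited table of raw read counts per Ensembl gene covers 12 RNA libraries in 4 groups. Per the submitters' processing notes, the tools named include Trimmomatic, HISAT2 2.0.5, HTSeq 0.9.1, DESeq2 1.22.2 and Bismark 0.19.0, with the build mm10 and no roles given. The FPKM values were deposited by the authors and follow gene length and column total, and the gene length in bases is another column the authors deposited. The authors deposited for each region the mean methylation fraction of both sides, their difference and a number (count) of sites, with a median of 2.1 per CpG of the reference over 251 regions. Which caller made the regions is not stated in the labels. The difference was used, and the fractions served only to check its direction. The peak lists and the region table of cells that lack Setd2 against leukemia cells were not used here.

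Counts were tested with the quasi-likelihood test of edgeR 4.0.16 (R 4.3.3) after filterByExpr and TMM scaling, in a fit of all 12 libraries with 8 residual degrees of freedom, which share the estimate of the spread. Benjamini-Hochberg adjusted p below 0.05 was called, over 16233 genes. The common biological coefficient of variation was 0.087. Of the listed genes 24553 had no count in the 6 libraries. Alternatives were upper-quartile and DESeq2 size factors, other filters on low counts, the 6 libraries alone, a replicate block, gene length offsets, scaling without the 50 most abundant genes, each library left out, DESeq2 1.42.0 and limma 3.58.1 on log2 FPKM, and bedtools 2.31.1 gave overlaps of at least 1 base between promoters and regions. No label gives the strand setting of the counting, so reads of antisense or overlapping genes cannot be told apart.

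The members, the gene lists and the markers were chosen with earlier results of these data known, so no count of a list is independent evidence of its direction. Genes were named by this rule: Setd2, Nup98 and Hoxd13, then outside the neutrophil and HSPC markers, the 12 largest rises and falls by log2 difference, the 8 largest gains and losses in CPM, and in each list up to 3 rises and 3 falls, with at least 10 CPM in the higher group, an adjusted p below 0.05, no overlap between the groups and an official symbol, and the markers of each marker list. These genes fall outside the rule and were chosen after their values were seen: Alox5, Ccna2, Ccne1, Clec12a, Csf2rb, Cyba, Egr1, Eno1, Ffar2, Fpr1, Fpr2, Gsr, Hk3, Hoxc4, Hoxc6, Hoxc8, Hoxc9, Ifitm1, Ifitm3, Lin28b, Mxi1, Rac2, Runx1, Runx3, Taldo1, Tek, Tgfbr2, Tkt, Tlr4, Xbp1 and the Y-linked genes.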

Additional observations from a re-analysis of the deposited data

How the results depend on the processing

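Across 17 alternatives the counts of genes higher, lower, at least 2-fold higher and at least 2-fold lower in NHD13 stayed within 1.5 times of 4112, 4652, 1160 and 2579, except on FPKM values. On log2(FPKM + 1) they were 1683, 8305, 348 and 1089 by limma, and on log2(FPKM + 0.1) they were 1702, 8422, 645 and 2954; the cause was not tested. DESeq2 gave 4565, 4285, 1222 and 2425. With gene length fitted, 5136 were higher and 4068 lower. Leaving out 1 library at a time gave 3817 to 4338, 4205 to 4710, 1123 to 1208 and 2431 to 2557. Of 192 genes named, 188 kept their call and direction in all 17. Setd2 had an adjusted p of 0.102 with gene length fitted (log2 -0.16), and Actb one of 0.0631 with only the 6 libraries. The log2 difference of Nup98 was -0.0554 on log2(FPKM + 1) and -0.0807 on log2(FPKM + 0.1), and that of Nr1h2 was -0.0007 and -0.0008.

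Replicate numbers are shared by the groups, and the correlations of the deviations of same-numbered NHD13 and WT libraries were 0.232, 0.535 and -0.221. Differently numbered libraries were not compared, so these values cannot decide whether the numbers pair the samples. With the replicate block, on the 6 libraries, 3847 genes were higher, 4181 lower, 1118 at least 2-fold higher and 2379 at least 2-fold lower.

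Of genes at promoters of lower methylation, 23.3% were at least 2-fold higher with regions of at least 10 listed sites and 32.2% with overlaps of at least 100 bases. At promoters of higher methylation 30.9% and 32.5% were at least 2-fold lower. Both settings were chosen after seeing the data. At this depth, genes below 1 CPM in both groups rest on few reads.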

Other observations

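Of the 12 mast cell, basophil and eosinophil markers 5 rose and 6 fell in NHD13. Epx, eosinophil peroxidase, had 48.7, 51.9 and 41.97 CPM in NHD13 libraries, against 17.3, 14.5 and 14.3 CPM in WT libraries (log2 1.63 ± 0.18, adjusted p = 2.04e-06), and Prg2, major basic protein, had 644, 679.8 and 555 CPM in NHD13 libraries, against 220.1, 269 and 207 CPM in WT libraries (log2 1.43 ± 0.11, adjusted p = 1.18e-07). The basophil protease gene Mcpt8 had 20.03, 20.2 and 20.6 CPM in NHD13 libraries, against 99.96, 112 and 98.9 CPM in WT libraries (log2 -2.36 ± 0.09, adjusted p = 4.85e-14), and the carboxypeptidase gene Cpa3 of mast cells and basophils had 48.3, 49.3 and 39.4 CPM in NHD13 libraries, against 247, 300.2 and 297 CPM in WT libraries (log2 -2.62 ± 0.10, adjusted p = 1.47e-12). The groups overlapped in none of these 4 genes. Of the 14 erythroid markers 11 rose and 1 fell. Their summed levels, not TMM-scaled, were 3628 to 4374 CPM per library total in NHD13 and 3448 to 3737 CPM in WT. TMM scaling would raise the NHD13 sums relative to WT, so the overlap of these ranges does not show that the sums are alike. Hba-a1, an alpha globin gene with a near-identical copy, was at log2 1.14 ± 0.08, and Klf1, the erythroid master factor, was at log2 0.89 ± 0.07. Of 13 T and NK cell markers 9 fell and 1 rose, and of 12 B cell markers 6 fell and none rose.

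Ifitm1, an interferon-induced membrane protein gene, had 12.9, 10.96 and 14.3 CPM in NHD13 libraries, against 521, 545 and 545 CPM in WT libraries (log2 -5.40 ± 0.08, adjusted p = 3.40e-19), and its family member Ifitm3 had 207, 211 and 209 CPM in NHD13 libraries, against 687, 725 and 726 CPM in WT libraries (log2 -1.77 ± 0.05, adjusted p = 2.45e-15). The genes Egr1, Ifitm1 and Ifitm3 were chosen after their values were seen. Egr1, an immediate early transcription factor gene, had 86.7, 75.98 and 101 CPM in NHD13 libraries, against 783, 549.7 and 579.5 CPM in WT libraries (log2 -2.86 ± 0.13, adjusted p = 9.96e-10), and Fos, another such gene, had 287, 250.2 and 324 CPM in NHD13 libraries, against 1244, 1023 and 1062 CPM in WT libraries (log2 -1.95 ± 0.09, adjusted p = 1.08e-11). In all 4 of these genes every NHD13 library lay below every WT library.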
